A study of Mus musculus with 6 samples.

Results

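MicroRNAs (miRNAs) of leukocytes and inflammation, 7 of the 1247 mouse miRNAs on the array, were followed in mouse kidney at 2 ages. They were chosen by name, as array entries: mmu-miR-223-3p (myeloid), mmu-miR-142-3p with mmu-miR-142-5p (pan-leukocyte), mmu-miR-150-5p with mmu-miR-342-3p (lymphoid), and 2 inflammation-induced ones, mmu-miR-146a-5p and mmu-miR-155-5p. The choice was made with earlier results of these data known. The species prefix is left off from here on. Kidney RNA came from male C57BL/6 mice, an inbred laboratory strain, at 2 months (young, n = 3) and at 20 months (aged, n = 3), and no treatment or allele is named in the labels. The design speaks of independent RNA preparations, without naming the animals behind them. All p-values here therefore reflect variation among preparations, which may be technical. Each preparation was labelled with the dye Cy3 and hybridised to its own 1-colour array, all on 1 slide with a single scan.

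miRNAs are short RNAs that pair through their seed, the bases near the 5′ end, with messenger RNAs and repress them. Several are made almost only in blood-derived cells, so their level in a solid organ is commonly read as a trace of the leukocytes in its tissue and vessels. miR-223 belongs to neutrophils and other myeloid cells, and miR-142 is made throughout the blood lineage from a hairpin whose arms both persist. miR-150 is abundant in mature lymphocytes, where it represses the transcription factor Myb, and miR-342 lies in an intron of Evl. miR-146a is switched on by NF-kB and restrains Toll-like receptor signalling, while miR-155, cut from the transcript Mir155hg, is induced in activated macrophages and lymphocytes.

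RefSeq (GRCm38.p6) held a mature sequence for 6 of the 7 miRNAs, miR-150-5p being the exception. They are shown because the results turn on which of these are separate sequences and which share a hairpin or a seed, and capitals mark the seed (bases 2 to 8).
miR-223-3p: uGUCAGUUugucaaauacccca
miR-142-3p: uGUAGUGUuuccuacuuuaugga
miR-142-5p: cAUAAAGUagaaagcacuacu
miR-342-3p: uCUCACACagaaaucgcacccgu
miR-146a-5p: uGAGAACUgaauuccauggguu
miR-155-5p: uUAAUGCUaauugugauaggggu
miR-146b-5p: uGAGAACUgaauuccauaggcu
The 6 sequences had 6 distinct seeds. miR-146a-5p shared its seed with 1 other mature mouse miRNA in that table, miR-146b-5p, printed last for comparison, and the others shared theirs with 0.

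miR-223-3p lies at chrX:96242884-96242905 (plus strand), within F630028O10Rik, and miR-342-3p at chr12:108658680-108658702 (plus strand), within Evl. miR-155-5p lies at chr16:84714143-84714165 (plus strand), within Mir155hg, and miR-146a-5p at chr11:43374435-43374456 (minus strand). The 2 arms of miR-142 come from 1 hairpin at chr11:87756864-87756927 (plus strand), overlapped by the annotated Mir142b. In the hairpin, printed because its arms serve below as 2 readings of the same precursor, capitals mark miR-142-5p and then miR-142-3p.
Mir142 hairpin: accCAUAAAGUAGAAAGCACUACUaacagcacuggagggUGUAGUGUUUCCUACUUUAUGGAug

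Levels are given as a percentage of the array reference, the 75th percentile of the 315 probes that were well above background on all 6 arrays. A level sums the probes of a miRNA, so it compares arrays for 1 miRNA and not 1 miRNA with another. The reference ranged from 1171 to 2054 intensity units over the arrays, and 177 to 209 miRNAs were detected per array. The number of arrays limits the precision. Of the 7 miRNAs, 6 were among the 193 tested, and miR-150-5p was not, being well above background on 2 of 3 arrays in each group.

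Myeloid and pan-leukocyte miRNAs stood higher in aged kidney by 1.3- to 1.5-fold, and none passed the threshold after adjustment. miR-223-3p was higher on all 3 aged arrays, whereas the 2 arms of miR-142 were higher on 2 aged arrays and at the young level on the third. The inflammation-induced miR-146a-5p and miR-155-5p stood about 1.2-fold higher, and the lymphoid miR-342-3p and miR-150-5p overlapped between the ages. In total 0 of the 6 tested miRNAs passed an adjusted p of 0.05 by limma (7.77% of all tested miRNAs did, 4.15% higher and 3.63% lower in aged kidney). At an unadjusted p under 0.05, 3 of 6 passed (25.4% of all tested), and all 3 were higher in aged kidney (9.84%).

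**Figure D1:**
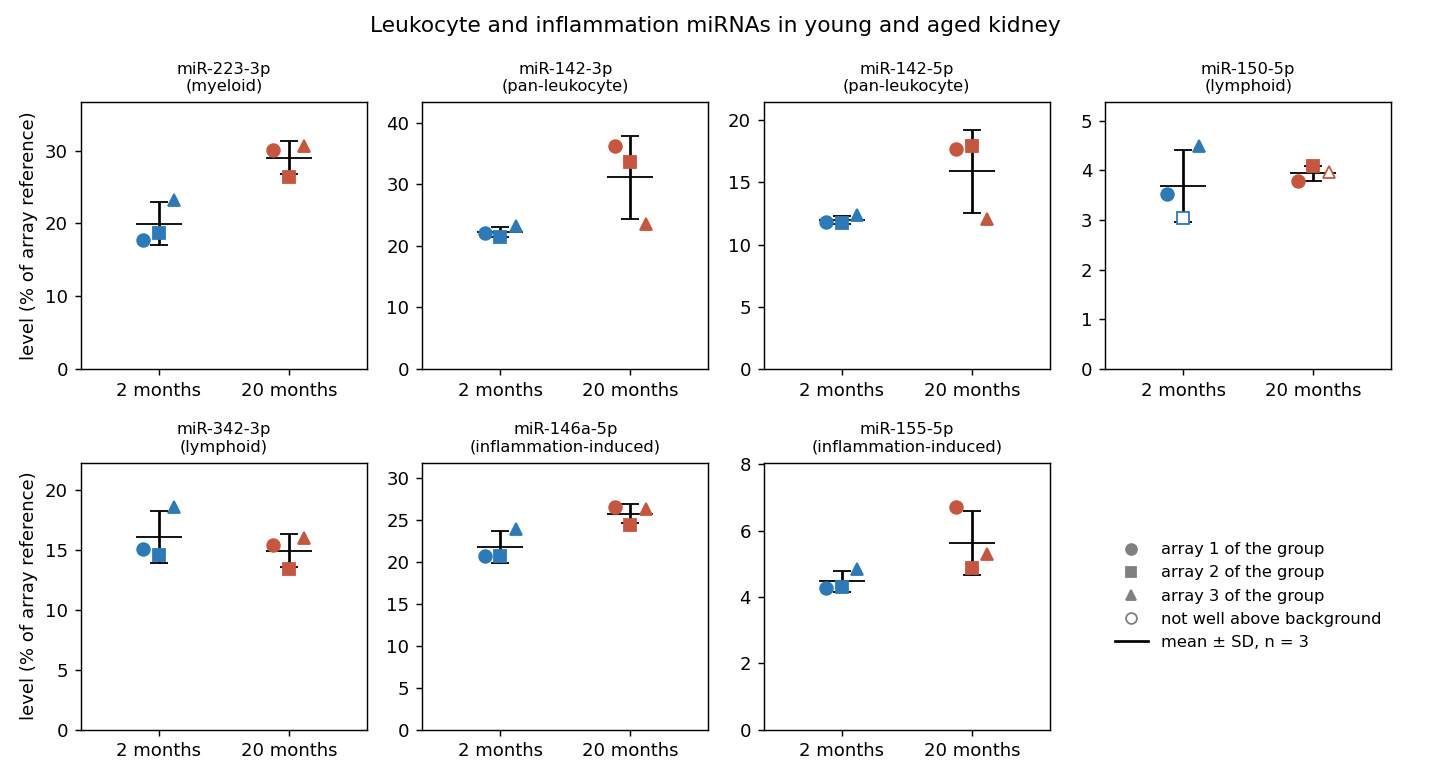
Level of each miRNA on each array, as a percentage of the array reference (vertical axes start at 0 and differ between panels), with symbols for array 1, 2 and 3 of each group, open where not well above background, and the mean ± SD (n = 3). miR-223-3p lies between 17.8 and 23.3% on young arrays and between 26.4 and 30.6% on aged arrays, while aged array 3 lies beside the young arrays for miR-142-3p and miR-142-5p.

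miR-223-3p, a miRNA of granulocytes and monocytes, measured 17.8, 18.8 and 23.3% of the reference on young arrays 1, 2 and 3. On aged arrays 1, 2 and 3 it measured 30.1, 26.4 and 30.6%. The groups did not overlap, and the lowest aged value lay 0.18 (log2) above the highest young value, that of young array 3. The difference was 0.55 ± 0.13 (log2 difference ± SE, n = 3 per group), or 1.46-fold with a 95% interval of 1.18 to 1.81. The limma adjusted p was 0.051 and the unadjusted p 0.00423, the 16th smallest of the 193. The lead was seen on its 2 probes, at 0.58 on the brighter and 0.43 on the dimmer, each without overlap of the groups. In a bulk sample, more cells of a type and more of the RNA per cell cannot be told apart.

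Whether miR-223-3p passed depended on the setting. It passed in 8 of 16 other processing settings, omissions of an array and slide row 1 alone not counted, with limma adjusted p from 0.013 to 0.397 and a difference of 0.28 to 0.96. Among the 6 omissions of an array it passed without young array 3 (0.67, limma adjusted p = 0.0442) and without aged array 1 (0.52, limma adjusted p = 0.0447).

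miR-142-3p, a miRNA common to all blood lineages, measured 22.1, 21.4 and 23.2% of the reference on young arrays 1, 2 and 3. On aged arrays 1 and 2 it measured 36.1 and 33.6%, and on aged array 3 it measured 23.5%. The first 2 aged arrays thus stood apart from all others, and aged array 3 lay 0.02 (log2) above the highest young array. The difference was 0.46 ± 0.17 (log2, n = 3 per group), or 1.38-fold with a 95% interval of 1.04 to 1.82 (limma adjusted p = 0.14). The SD among aged arrays, 0.33, was 5.84 times that among young arrays, 0.06.

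miR-142-5p, cut from the same hairpin, gave the same split of the arrays. It measured 11.8, 11.7 and 12.4% of the reference in young kidney and 17.7, 17.9 and 12.04% on aged arrays 1, 2 and 3. Aged array 3 lay between the young arrays, so the groups overlapped. The difference was 0.38 ± 0.16 (log2, n = 3 per group), or 1.31-fold with a 95% interval of 0.992 to 1.72 (limma adjusted p = 0.186).

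The split was present on all 4 probes of the hairpin. Against the mean of the young arrays, those probes stood at 0.56 to 0.83 (log2) on aged array 1, at 0.39 to 0.64 on aged array 2 and at -0.04 to 0.11 on aged array 3. Spots of a probe varied within an array by a median CV of 8.87 to 15.6%, over 17 to 20 kept spots. The 2 probes of miR-142-3p varied most on aged array 1, at 28.3 and 28.04%, and on aged array 2 they varied by 6.58 and 10.9%. Without aged array 3 the differences were 0.65 for miR-142-3p and 0.57 for miR-142-5p, with a limma adjusted p of 0.0115 for each. Without aged array 1 they were 0.34 and 0.29 (limma adjusted p = 0.177 and 0.271).

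**Figure D2:**
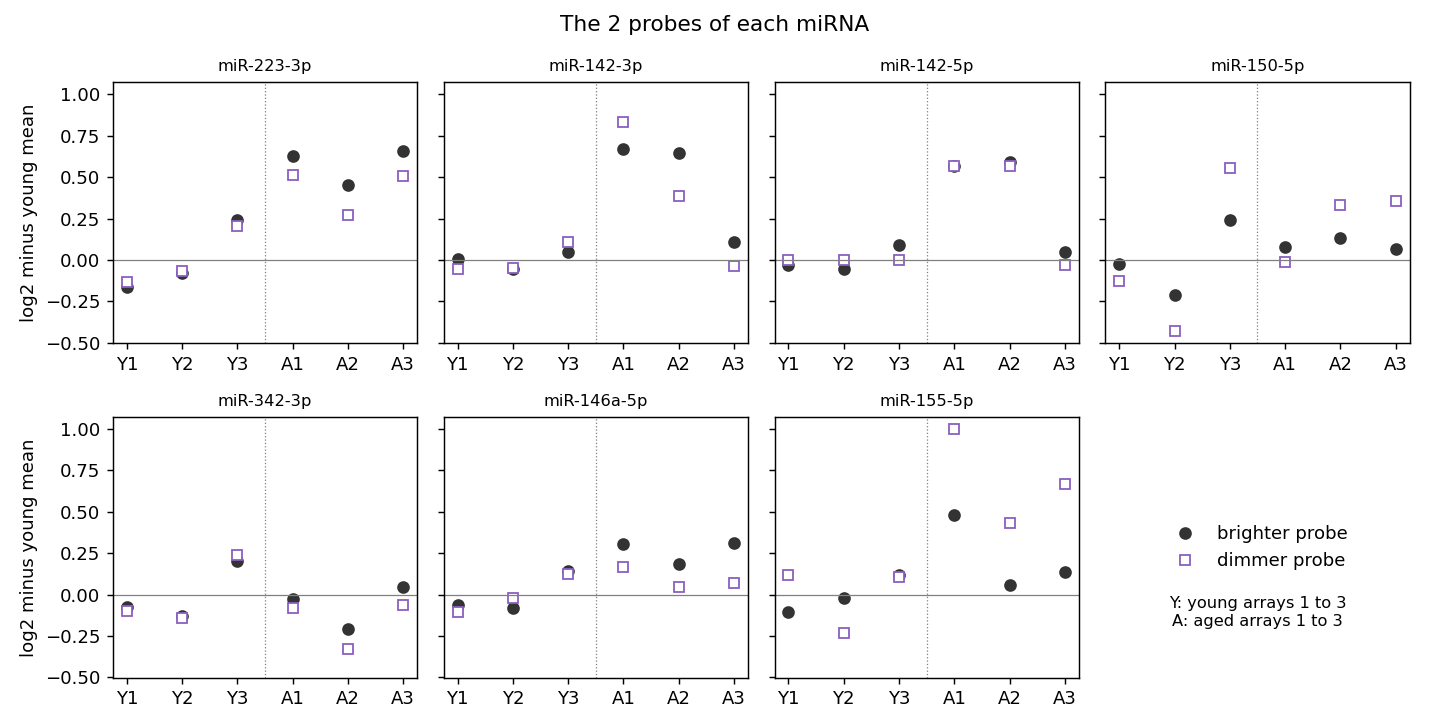
Log2 scaled signal of the 2 probes of each miRNA on each array (Y1 to Y3 young, A1 to A3 aged), minus the mean of the young arrays for that probe. For miR-142-3p and miR-142-5p all 4 probes lie at 0.39 or more on A1 and A2 and at 0.11 or less on A3, and for miR-155-5p the dimmer probe stands above the brighter one on the aged arrays.

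The arms were compared with each other on each array, which removes the scaling between arrays. The log2 ratio of miR-142-3p to miR-142-5p was 0.90, 0.87 and 0.91 on young arrays 1, 2 and 3 and 1.03, 0.91 and 0.97 on aged arrays 1, 2 and 3. Its size reflects the probes, and only its change between ages is read. It was 0.08 higher in aged kidney. The groups all but touched, at 0.905 on young array 3 and 0.910 on aged array 2. An exact two-sided permutation test gave p = 0.1, the smallest that 3 against 3 arrays allow, and 0.2 adjusted over the 4 pairs compared. Under quantile normalization the change was 0.0093, with normexp background correction it was 0.13, and without aged array 1 it was 0.046.

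Neither lymphoid miRNA separated the ages. miR-342-3p, an intronic miRNA of Evl, measured 15.1, 14.5 and 18.5% of the reference in young kidney and 15.4, 13.4 and 15.9% on aged arrays 1, 2 and 3, and the groups overlapped. The difference was -0.10 ± 0.12 (log2, n = 3 per group, limma adjusted p = 0.635). Its 95% interval in the main processing was a fold of 0.757 to 1.15 for aged over young. That leaves out the 1.46-fold estimate of miR-223-3p but does not show equality. With the reference over all probes miR-342-3p stood at 0.31 ± 0.30, and it was not compared with miR-223-3p by a test. Its sign was not fixed: the difference was positive in 6 of 22 other settings, slide row 1 alone not counted, among them 0.039 with the median as reference and 0.014 in the authors' processed values.

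miR-150-5p measured 3.52, 3.05 and 4.48% of the reference in young kidney and 3.79, 4.09 and 3.96% on aged arrays 1, 2 and 3. The aged arrays lay inside the young range, and the difference of 0.12 was given no test because young array 2 and aged array 3 were not well above background. Its sign was not fixed, at -0.075 with normexp background correction and -0.011 without young array 2, against 0.40 with quantile normalization and 0.53 with the reference over all probes. Its brighter probe held 30.4 to 65.9 intensity units, and its dimmer probe, at 6.25 to 18.1, was not well above background on any array.

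Of the inflammation-induced miRNAs, miR-146a-5p measured 20.7, 20.7 and 23.9% of the reference in young kidney. On aged arrays 1, 2 and 3 it measured 26.5, 24.4 and 26.3%. All aged arrays lay above all young ones, by 0.03 (log2) at the closest. The difference was 0.24 ± 0.09 (log2, n = 3 per group), or 1.19-fold with a 95% interval of 1.02 to 1.38 (limma adjusted p = 0.14). Its brighter probe, with 86.4% of the summed signal, gave 0.27, and its dimmer probe gave 0.09 with overlapping groups. miR-146b-5p, which shares its seed, was not well above background on any array.

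miR-155-5p, the miRNA of activated immune cells, measured 4.27, 4.29 and 4.84% of the reference in young kidney and 6.71, 4.88 and 5.29% on aged arrays 1, 2 and 3. Aged array 1 stood highest, and aged array 2 lay 0.01 (log2) above the highest young array. The difference was 0.32 ± 0.13 (log2, n = 3 per group), or 1.25-fold with a 95% interval of 0.997 to 1.57 (limma adjusted p = 0.186). Without aged array 1 it was 0.19. The separation of its groups rests on its dimmer probe, which differed by 0.70 but was not well above background on any array, at 8.13 to 22.0 intensity units. The brighter probe differed by 0.23 with overlapping groups, and with normexp background correction the summed difference was -0.02.

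**Figure D3:**
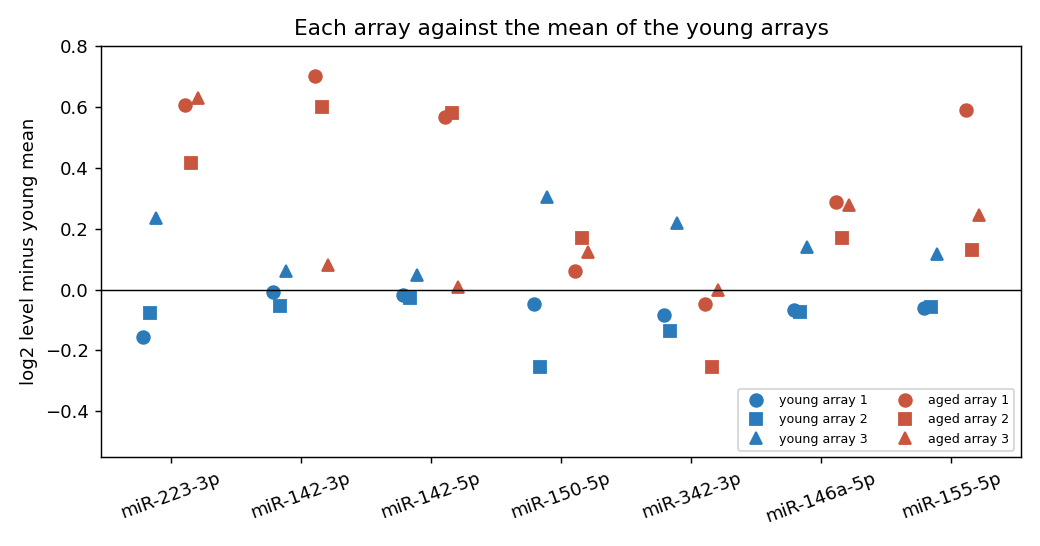
Log2 level of each miRNA on each array minus the mean of the young arrays (horizontal line at 0), with blue symbols for young and red symbols for aged arrays. Aged array 3 is the highest array for miR-223-3p, at 0.63, and lies at 0.08 and 0.01 for the arms of miR-142, while miR-155-5p is highest on aged array 1, at 0.59.

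The order of the aged arrays differed between miRNAs. Against the young mean, aged array 1 stood at 0.60 for miR-223-3p, 0.70 for miR-142-3p, 0.57 for miR-142-5p, 0.29 for miR-146a-5p and 0.59 for miR-155-5p. Aged array 2 stood at 0.42, 0.60, 0.58, 0.17 and 0.13 for the same miRNAs, and aged array 3 at 0.63, 0.08, 0.01, 0.28 and 0.25. Aged array 3 was thus high for the myeloid miRNA and at the young level for the pan-leukocyte pair. Within arrays, the log2 ratio of miR-223-3p to miR-142-3p was -0.32, -0.19 and 0.01 in young kidney and -0.26, -0.35 and 0.38 on aged arrays 1, 2 and 3. Between ages it differed by 0.09 (exact two-sided permutation p = 0.9, and 0.9 adjusted over 4 pairs), and by -0.14 without aged array 3, 0.22 without aged array 2, 0.18 without aged array 1 or young array 3 and 0.014 without young array 1. The ratio of miR-146a-5p to miR-142-3p differed by -0.22 (exact two-sided permutation p = 0.4, and 0.533 adjusted), at -0.09, -0.05 and 0.05 in young kidney and -0.45, -0.46 and 0.16 on aged arrays 1, 2 and 3. Without aged array 3 that difference was -0.42, without aged array 1 it was -0.12 and without aged array 2 it was -0.11.

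Among young arrays, array 3 was the highest for all 7 miRNAs (7 of 7), and it was the highest for 65.8% of all tested miRNAs. The median of all tested miRNAs lay at 0.06 above the young mean on that array and at -0.06, -0.09 and 0.00 on aged arrays 1, 2 and 3. The part of this offset in the results was not tested.

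Of the 6, 5 had positive differences (33.7% of all tested), and their median difference of 0.35 stood beside -0.08 for the whole tested set. Every aged array exceeded every young one for 4 of the 6 (10.4% of all tested), which were miR-223-3p, miR-142-3p, miR-155-5p and miR-146a-5p. The opposite order held for 0 of 6 (20.2% of all tested). The count was 5 without young array 3 or without aged array 3, where 18.7 and 11.9% of all tested miRNAs separated. It was 1 with log2 values averaged over probes and 1 with normexp, where 9.33 and 6.74% did. These counts only describe the set, which was chosen with earlier results of these data known. They also count miR-142-3p and miR-142-5p separately, though both come from the same hairpin.

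**Figure D4:**
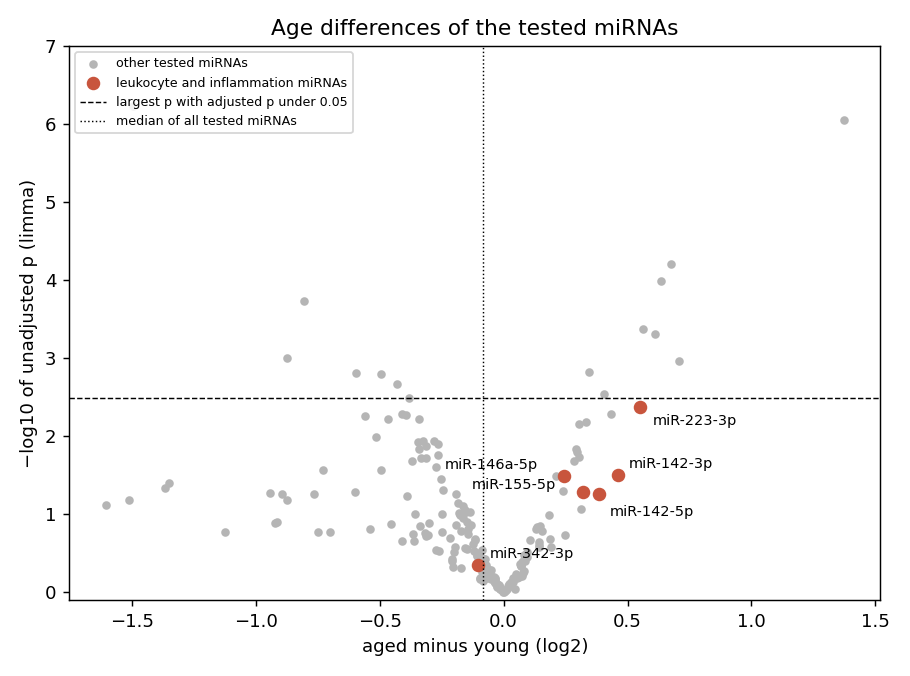
Aged minus young difference (log2, horizontal) against −log10 of the unadjusted limma p (vertical) for the 193 tested miRNAs, with the 6 leukocyte and inflammation miRNAs in red, a dashed line at the largest p with an adjusted p under 0.05 and a dotted line at the median of all tested, -0.08. miR-223-3p, at 0.55, lies just under the dashed line, and miR-342-3p, at -0.10, lies at the dotted one.

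The scaling set where 0 lies. Taking the reference over all probes moved the median of the tested miRNAs by 0.41 (log2). No scaling moved it by 0.20, a median reference by 0.14 and the authors' processed values by 0.11. Relative to that median miR-223-3p stood at 0.63, miR-142-3p at 0.54, miR-142-5p at 0.47, miR-155-5p at 0.41, miR-146a-5p at 0.33 and miR-342-3p at -0.02, and by construction these values were the same under the first 3 of those settings. Over all tested miRNAs 8 were higher and 7 lower past the threshold, against 18 and 3 with the median as reference, 13 and 1 with quantile normalization and 10 and 0 in the authors' values. With the median and with quantile normalization the calls included miR-223-3p, miR-155-5p and miR-146a-5p.

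**Figure D5:**
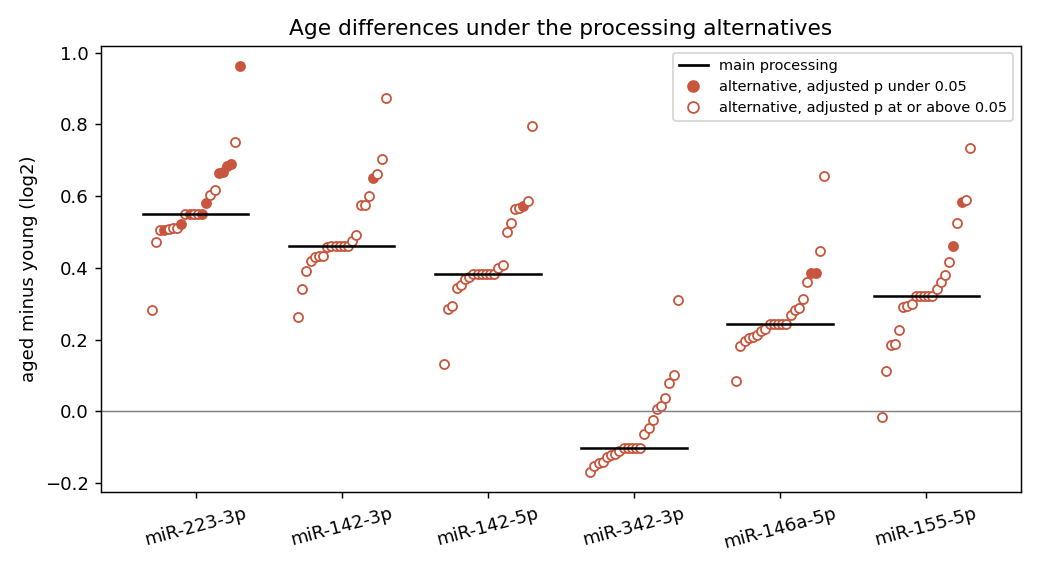
Aged minus young difference (log2) of each tested miRNA under 22 other settings, slide row 1 alone left out (circles in ascending order, filled where the limma adjusted p was under 0.05), with a black line at the main value. All values of miR-223-3p, miR-142-3p, miR-142-5p and miR-146a-5p lie above 0, miR-155-5p has 1 below 0, at -0.02, and miR-342-3p has values on either side.

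The slide has 2 rows, and the 3 young arrays share row 1 with aged array 1, while aged arrays 2 and 3 fill row 2. With slide row as a block the differences were 0.60 for miR-223-3p, 0.70 for miR-142-3p, 0.57 for miR-142-5p, 0.29 for miR-146a-5p, 0.59 for miR-155-5p and -0.05 for miR-342-3p. None of the 6 passed (limma adjusted p = 0.068 to 0.953). With that block the only aged array set against young ones is aged array 1. Row 2 holds aged arrays only and gives no value of its own. Within row 1, a setting chosen after seeing the data, the same differences set the single aged array 1 against 3 young arrays, with the lone array assumed to vary like them, so that calls there compare that array and not the ages.

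Opposite arms and the seed relative of these miRNAs were not detected. The opposite arms miR-223-5p, miR-150-3p, miR-342-5p, miR-146a-3p and miR-155-3p, together with miR-146b-5p, were on the array and not well above background on any of the 6 arrays, so 0 of 6 could be tested. Of 8 other immune and inflammation-linked miRNAs 4 were tested. By limma 0 of the 4 passed in either direction (7.77% of all tested), and 2 had an unadjusted p under 0.05 (25.4%). These were miR-181a-5p and miR-181b-5p, known from thymocytes and also present in other tissues, at -0.47 ± 0.12 and -0.52 ± 0.14 (limma adjusted p = 0.0528 and 0.0791). Both were lower on every aged array than on any young one (20.2% of all tested were). miR-21a-5p, induced in injured tissue, stood at 0.08 ± 0.09 (limma adjusted p = 0.586). The macrophage miRNAs miR-147-3p, miR-511-5p and miR-511-3p were not well above background on any array.

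Red cell miRNAs, the other blood-borne group in kidney, stood on the opposite side. All 3 tested were lower on every aged array than on any young one (20.2% of all tested were). Their median was -0.56, beside -0.08 for all tested miRNAs. They were miR-451a at -0.34, miR-144-3p at -0.73 and miR-3107-5p at -0.56, of which miR-451a turned to 0.070 with the reference over all probes. miR-144-3p was lowest on aged array 3, and its difference was -0.42 without that array. By limma 0 of them passed (3.63% of all tested passed as lower), and 3 had an unadjusted p under 0.05 (25.4% in either direction). Their summed log2 level was 3.07 to 3.23 on young and 2.67 to 2.84 on aged arrays. That sum mainly restates miR-451a, which alone stood at 2.98 to 3.15 on young and 2.62 to 2.76 on aged arrays. The log2 ratio of miR-223-3p to miR-451a was -5.64, -5.39 and -5.08 in young kidney and -4.49, -4.61 and -4.33 on aged arrays 1, 2 and 3, without overlap. It was 0.89 higher in aged kidney (exact two-sided permutation p = 0.1, the smallest possible, and 0.2 adjusted over 4 pairs), and 0.63 to 1.16 over the alternatives. The labels do not say whether kidneys were flushed of blood, and the part of blood content in the results was not tested.

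All 10 kidney epithelial miRNAs were tested, and 1 was lower past the threshold (3.63% of all tested). It was miR-141-3p at -0.38 (0.031 with the reference over all probes). Of the 10, 2 had positive differences, and the groups separated as higher for 1 and as lower for 3 (10.4 and 20.2% of all tested). Higher on every aged array was miR-194-5p, at 0.28 (limma adjusted p = 0.104), while miR-200c-3p stood at -0.33 (limma adjusted p = 0.1). The summed log2 levels of the list were 4.36 to 4.54 on young and 4.29 to 4.49 on aged arrays. Of 5 stromal miRNAs 2 passed as higher (4.15% of all tested), miR-199a-3p at 0.40 and miR-199a-5p at 0.34. The summed levels of the 5 were 1.04 to 1.102 in young and 1.23 to 1.36 in aged kidney. This list split in direction. Groups separated as higher for 3 of the 5 (10.4% of all tested). Besides the 2 that passed, the higher ones included miR-214-3p, at 0.30 (limma adjusted p = 0.0939). miR-143-3p at -0.27 and miR-145a-5p at -0.25 were lower on every aged array than on any young one (20.2% of all tested). Neither passed, and the reference over all probes turned the sign of both (0.14 and 0.16). The main limma adjusted p was 0.12 and 0.149, and these were named after their values were seen. For the endothelial miR-126-3p the difference was 0.08 ± 0.08 (limma adjusted p = 0.519). Of 7 miRNAs typical of other organs, 5 were not well above background on any array, and the 1 tested, miR-124-3p, passed as higher, with all young arrays at the floor. The muscle miRNA miR-1a-3p was well above background on 4 of the 6 arrays and was not tested. The part of these cell types in the results was not tested.

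Likeness of profile was measured as the mean absolute difference of log2 values over the 6 arrays, each miRNA centred on its own mean. Closest to each other were miR-142-3p and miR-142-5p, at 0.04, followed by miR-146a-5p and miR-155-5p, at 0.09. Outside these miRNAs, miR-223-3p lay nearest to miR-874-3p (0.07) and miR-29a-3p (0.12), where the median over all other miRNAs was 0.32. Both arms of miR-142 lay nearest to miR-199a-3p (0.13 for miR-142-3p and 0.11 for miR-142-5p) and then to miR-338-3p (0.15 and 0.13). miR-146a-5p lay nearest to miR-1839-3p (0.05) and miR-199b-5p (0.06), and miR-155-5p to miR-193b-3p (0.09) and miR-1839-3p (0.10). miR-342-3p lay nearest to miR-204-5p, a miRNA of renal tubules, and to miR-99b-5p (0.04 each), where the median was 0.14.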

How the data were processed

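Per the file headers, arrays of design 046065 (build of the design mm9) were read with Feature Extraction 11.5.1.1. The deposited spot values used for the levels are fluorescence intensity, background-subtracted by that software and not scaled between arrays. Other deposited columns hold flags of 0 or 1, spot and background medians, and the total gene signal. The authors' table is on a log2 scale and matched the log2 total gene signal of the software after subtracting 1 constant for each array, within 1.02e-05 over 1247 miRNAs. How the constant was chosen is not stated in the sources used.

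Each array held 49880 non-control spots in 3105 probes, with 0 saturated spots. Spots flagged as outliers were dropped and the intensity of the rest averaged per probe, divided by the reference, summed per miRNA, raised to a floor of -5.22 (log2) where lower, and logged. Detection of a probe on an array required the software's mark on more than 50% of kept spots. The 193 miRNAs detected on all 3 arrays of a group were tested with limma 3.58.1 (lmFit, eBayes) in R 4.3.3, Benjamini-Hochberg adjusted over all 193, at a threshold of 0.05. Of 6 planned pairs, 4 were compared, since miR-150-5p was not tested. Normexp used spot medians, with an offset of 50, because the files hold no spot means. Slide rows were read from the array positions in the deposited file names. Simulated data (193 miRNAs, 40 simulations) took means from the arrays and spread from the limma fit, equal in both groups and without array-wide offsets. On them the fit called 12.2% of differences set to 0.3 (log2), 63.8% at 0.6 and 90.6% at 1.2. Both arms of miR-142 varied more on aged than on young arrays, so these rates need not hold for them.

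Between arrays of a group, 58.4 to 81% of the 315 probes differed beyond spot noise, so no array was a copy of another; this does not show separate RNA samples. The miRNAs named are the 7 members, up to 3 of each list with the smallest p, and the 2 nearest profiles of each tested member, with list members that passed or were not detected named beside their counts. The members and lists were chosen with earlier results of these data known. miR-142-3p and miR-142-5p were matched to the RefSeq names miR-142a-3p and miR-142a-5p.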

Additional observations from a re-analysis of the deposited data

How the results depend on the processing

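The count of members past the threshold, 0 with the main processing, was 1 with the reference over all probes, the brightest probe, log2 averaged over probes, the authors' values, only miRNAs detected on all 6 arrays, and a trended robust prior. It was 3 with the median as reference and with quantile normalization, 4 within slide row 1 (added after the data were seen, and comparing 1 aged array with 3 young ones), and 0 to 2 with 1 array left out. No member was lower past the threshold in any alternative (0). The count of members whose groups separated as higher was 4 with the main processing (10.4% of all tested separated so). It was 1 with log2 averaged over probes (9.33%), 1 with normexp (6.74%) and 2 with outlier spots kept (10.9%). With 1 array left out it was 4 to 5, beside 10.4 to 18.7% of all tested.

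The sign of miR-342-3p turned with the reference over all probes (0.31), the median as reference (0.039), no scaling (0.10), quantile normalization (0.080) and the authors' values (0.014), and it ranged from -0.17 to 0.0080 with 1 array left out. With normexp miR-150-5p stood at -0.075, miR-155-5p at -0.016, miR-1839-3p at -0.011 and miR-193b-3p at -0.040. With the reference over all probes miR-143-3p stood at 0.14, miR-145a-5p at 0.16, miR-141-3p at 0.031, miR-451a at 0.070, miR-204-5p at 0.38 and miR-99b-5p at 0.24. Without scaling miR-204-5p stood at 0.17 and miR-99b-5p at 0.030. With quantile normalization miR-126-3p stood at -0.031. miR-204-5p was also positive with the median (0.10), quantile normalization (0.16) and the authors' values (0.047), and ranged from -0.10 to 0.054 with 1 array left out. The cause was not tested, except that changed references move all miRNAs together.

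Same-numbered young and aged arrays deviated together by correlations of 0.12, -0.58 and 0.31, so the number was not taken as a pairing. With the replicate block 0 members and 3 of all tested miRNAs passed, against 15. Over the other alternatives that count ranged from 2 (no scaling) to 39 (without aged array 1). Weak signal limits miR-150-5p and miR-155-5p most, since the dimmer probe of each was not well above background.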
